A study of Mus musculus with 5 samples.

Results

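The BMP pathway and the Id genes that it induces were followed through 10 genes: Id1, Id2, Id3, Id4, the ligands Bmp2, Bmp4 and Bmp7, the receptor Bmpr1a, the signal transducer Smad1 and the inhibitor Smad6. The genes were chosen by name, with earlier results of these data known. Their probes were all non-control probes whose transcript accession belonged to these genes. They made up 10 of the 18327 genes named on the array and 16 of its 41174 probes, in 43 spots. Id2 rose in differentiating hybrids and Smad6 and Bmp4 fell, each by more than 3-fold at 14 days. Id3 and Bmp7 were higher in the undifferentiated hybrid than in ES cells, while Id4 was lower there and was not well above background in the hepatoma. Bmp2 was not well above background in any of the 5 conditions.

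The study asked what becomes of a cancer cell's expression pattern after fusion with an ES cell, and again when the hybrid differentiates. RNA was hybridised to 5 Agilent mouse oligo arrays, 1 array per condition. ES was the mouse embryonic stem cell line E14, Hepa1-6 a mouse hepatoma line, and EHe the hybrid made by fusing E14 with Hepa1-6 and selecting drug-resistant colonies, near-tetraploid in chromosome content. EHeD7 and EHeD14 were EHe cells after 7 and 14 days of differentiation. ES and EHe were kept in medium with serum replacement and leukaemia inhibitory factor (LIF), the labels describe the differentiating hybrids as a monolayer on gelatin in a serum-containing, LIF-free high-glucose medium, and Hepa1-6 grew with calf serum in a similar base. A cell state therefore cannot be told apart from its medium in any comparison between these 3 sets. Which hybrid colony was hybridised is not given in the sources used here, and no condition had a second array, so no replicate spread and no p-value exists for any difference. ES, EHe, EHeD7 and EHeD14 shared 1 slide and Hepa1-6 was alone on the other, so slide and hepatoma cannot be told apart. The 10 spike-in control probes differed between Hepa1-6 and any other array by at most 1.06 on the log2 scale, and among the other 4 arrays by at most 1.87.

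BMPs are secreted ligands of the TGF-beta family. They bind pairs of type I and type II receptor kinases, which phosphorylate Smad1, Smad5 and Smad9. These transducers enter the nucleus with Smad4 and switch on target genes, among which the Id genes are the best known. Id proteins lack a DNA-binding domain, pair with E proteins and keep them and their partners from binding the E-box. Smad6 and Smad7 are induced by the pathway and inhibit it. In mouse ES cells, BMP together with LIF is known to sustain self-renewal through Id genes, and in the embryo BMP4 induces mesoderm.

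A level is given here as the relative signal, the probe's processed signal divided by the 75th percentile of its own array. Those percentiles ran from 1087 in ES to 1456 in Hepa1-6, between 65.6% and 79.5% of genes were well above background per array, and no spot was saturated. A signal is called well above background by the scanner software. The lowest such signal on an array, between 0.0140 in EHeD7 and 0.0349 in EHe, serves as its detection floor. A difference was called when it exceeded 3-fold, and a fold against an array where the gene was dim is a lower bound. For genes read by 1 spot per probe, the scanner software's own error gives a standard error (SE) of about 0.20 on a log2 difference. Repeated spots of a probe differed with a median SD of 0.0857 on the log2 scale. Both errors cover the spots of 1 array and not the spread between cultures, and the number of arrays limits the precision. Expression was measured on bulk RNA, in which fewer cells of a type and less RNA per cell cannot be told apart. Levels of different genes come from different probes and are not set against each other.

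The labels were checked against cell type markers. All 5 measured pluripotency markers (Pou5f1, Sox2, Zfp42, Esrrb, Tdgf1) were well above background in ES, EHe, EHeD7 and EHeD14 and none was in Hepa1-6, and their summed relative signal was 102, 109, 45.4 and 36.3 against 0.040. From EHe to EHeD7 and EHeD14, Zfp42 (51.3, 6.15, 3.02), Esrrb (16.2, 1.29, 0.140) and Sox2 (11.1, 3.21, 2.47) fell. Pou5f1 (16.5, 21.2, 18.1) and Tdgf1 (14.3, 13.5, 12.6) moved far less. Of 5 hepatocyte markers, Alb, Afp and Apoa2 were well above background in Hepa1-6, Ttr and Apoa1 were not, and Afp alone was detected in ES, at 0.0618. None of the 5 was detected in the 3 hybrid arrays.

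Among the 9 members that could be tested, 2 were higher and 1 was lower in EHe than in ES, where 2.58% of 14098 tested genes were higher and 3.52% lower. At 7 days of differentiation 1 member was higher and 1 lower than in EHe (7.06% and 4.3% of 14679 genes), and at 14 days 1 was higher and 2 were lower (7.33% and 4.74% of 14272 genes). Both days were compared with the same EHe array. Between 14 and 7 days 0 members passed 3-fold, where 0.518% of 14682 genes were higher and 0.674% lower. Hepa1-6 against ES gave 5 members higher and 1 lower, beside 13.9% and 22.2% of 14558 genes. EHeD14 against Hepa1-6 gave 1 higher and 6 lower, beside 18.6% and 12.9% of 14596 genes, and with median centring 0 higher and 7 lower. The median log2 difference of the 9 members was -0.50 for EHe against ES, -0.65 and -1.06 for EHeD7 and EHeD14 against EHe, and 1.65 for Hepa1-6 against ES. The medians over all tested genes in the same comparisons were -0.12, -0.02, -0.02 and -0.42.

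**Figure D1:**
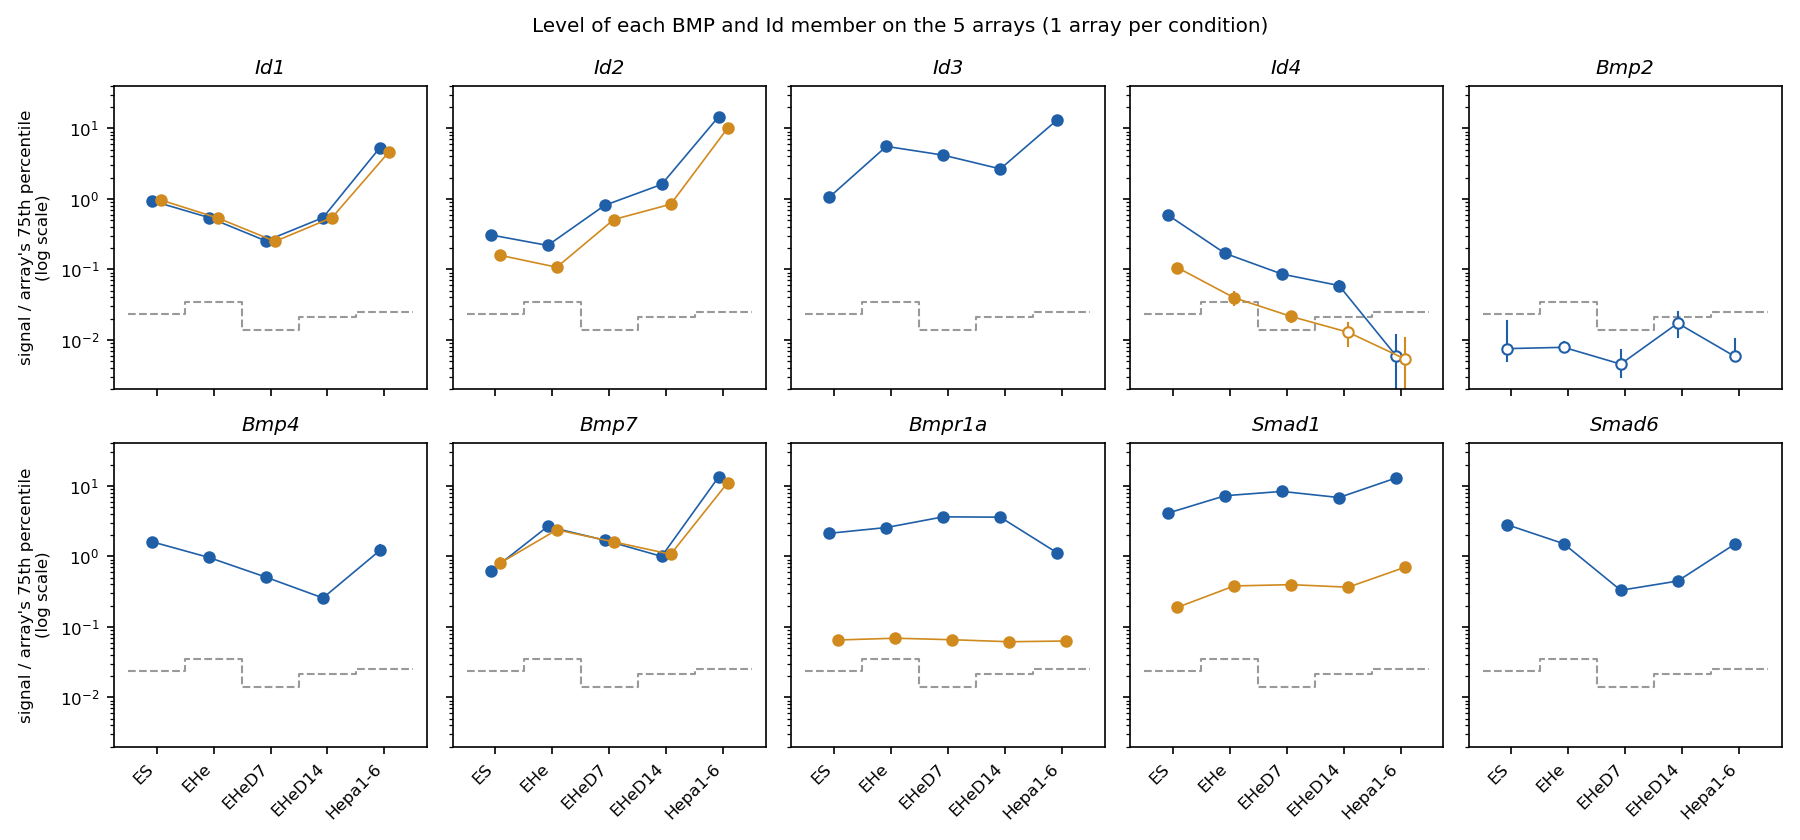
Relative signal (signal divided by the array's 75th percentile, log scale) of the 10 genes in the 5 conditions, 1 array each. Blue points are the probe used for the gene and orange points its second probe, open points are not well above background, bars are the range of repeated spots or the scanner error of a single spot, and the dashed line is the array's lowest signal well above background; Id2 climbs from 0.219 in EHe to 1.61 in EHeD14, while Bmp2 is open in all 5 arrays.

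The 4 Id genes did not move together. Their promoters are printed where RefSeq (GRCm38.p6) supplied them here, as 300 bases from 250 before to 50 after the transcription start, written 5′ to 3′ on the gene's strand. Capitals mark the letters searched on both strands, namely GGCGCC (a palindrome known to bind BMP Smads), CAGAC (the Smad box; GTCTG on the other strand) and CANNTG (the E-box). Id2, Id3 and Id4 are shown because their signals took different courses, and Smad6 because it fell at both days.

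Id2, chr12:25096043-25096342, minus strand: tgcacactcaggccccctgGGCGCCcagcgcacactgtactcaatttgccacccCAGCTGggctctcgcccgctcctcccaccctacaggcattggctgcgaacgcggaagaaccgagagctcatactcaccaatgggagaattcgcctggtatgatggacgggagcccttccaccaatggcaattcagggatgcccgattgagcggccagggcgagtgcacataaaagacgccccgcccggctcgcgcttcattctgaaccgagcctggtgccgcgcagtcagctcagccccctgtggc

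Id3, chr4:136143572-136143871, plus strand: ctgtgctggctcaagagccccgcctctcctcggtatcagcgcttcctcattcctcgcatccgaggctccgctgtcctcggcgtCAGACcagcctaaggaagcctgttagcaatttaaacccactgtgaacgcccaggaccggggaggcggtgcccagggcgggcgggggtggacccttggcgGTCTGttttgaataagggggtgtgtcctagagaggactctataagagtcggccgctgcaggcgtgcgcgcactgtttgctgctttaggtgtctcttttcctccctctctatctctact

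Id4, chr13:48260866-48261165, plus strand: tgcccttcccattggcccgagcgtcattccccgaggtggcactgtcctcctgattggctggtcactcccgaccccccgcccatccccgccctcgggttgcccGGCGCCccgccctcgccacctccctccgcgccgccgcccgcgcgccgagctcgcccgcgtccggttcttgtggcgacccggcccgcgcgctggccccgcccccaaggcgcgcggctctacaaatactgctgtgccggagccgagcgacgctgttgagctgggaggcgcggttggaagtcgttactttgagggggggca

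Smad6, chr9:64022010-64022309, minus strand: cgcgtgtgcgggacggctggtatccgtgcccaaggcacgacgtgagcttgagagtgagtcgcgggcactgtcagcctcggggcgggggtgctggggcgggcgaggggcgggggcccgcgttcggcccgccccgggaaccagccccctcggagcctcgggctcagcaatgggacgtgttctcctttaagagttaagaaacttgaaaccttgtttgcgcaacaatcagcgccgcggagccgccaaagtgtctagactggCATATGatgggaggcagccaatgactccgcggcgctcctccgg

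The Id2 window held 1 GGCGCC at -231 and 1 E-box at -196 from the start, and the Id4 window 1 GGCGCC at -148. The Id3 window held the CAGAC letters at -167 and, on the other strand, at -68, and no GGCGCC or E-box. The Smad6 window held 1 E-box at 8 and neither Smad motif. GGCGCC was found in 11.9% of 32851 RefSeq promoters of this length, CAGAC in 49.6% and CANNTG in 72.3%, so the last pair of motifs is common. Of the other members with a sequence here, the Bmp4 window held 3 E-boxes, the Bmpr1a window 1 GGCGCC and the Smad1 window no match. A match is a description of letters and not a bound site.

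Id2, which holds E proteins back in many lineages, was the member with a call in the upward direction on differentiation. Its relative signal was 0.309 in ES and 14.7 in Hepa1-6, and in the hybrid 0.219, rising to 0.811 at 7 days and 1.61 at 14 days. The order was Hepa1-6, EHeD14, EHeD7, ES and EHe, and each step exceeded the error of the spots. Id2 rose 3.70-fold at 7 days (log2 1.89, SE 0.21) and 7.33-fold at 14 days (log2 2.87, SE 0.21) over EHe. The step from 7 to 14 days was 1.98-fold, below the 3-fold call. Hepa1-6 exceeded ES 47.5-fold, and EHeD14 remained 9.13-fold below Hepa1-6. A second Id2 probe read 0.159, 0.107, 0.511, 0.842 and 10.1 in the same order of conditions, so both probes gave the same ranking. EHe lay below both parents by 1.41-fold against ES, a difference under the call.

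Id1, the Id gene most used as a readout of BMP activity, ran a different course. The parents read 0.942 (ES) and 5.34 (Hepa1-6), and the hybrid 0.544 before differentiation, 0.254 at 7 days and 0.542 at 14 days. EHeD7 was the lowest array, 2.14-fold under EHe (log2 -1.10, SE 0.21), and EHeD14 stood at the EHe level (log2 -0.00, SE 0.21). The comparisons of EHe with ES and among the hybrid arrays did not pass 3-fold for Id1. ES and EHeD7, which were farther apart, were not among the pairs compared. Hepa1-6 exceeded ES 5.68-fold and EHeD14 9.86-fold. The second probe returned 0.963, 0.534, 0.250, 0.544 and 4.66.

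Id3, which like Id1 acts in early embryonic and vascular cells, was raised in the hybrid. Its single probe read 1.06 in ES and 13.3 in Hepa1-6, with EHe at 5.57, EHeD7 at 4.18 and EHeD14 at 2.67. All 3 hybrid arrays lay between the parents. Id3 was 5.24-fold higher in EHe than in ES (log2 2.39, SE 0.20) and exceeded ES 12.5-fold in Hepa1-6. On differentiation it stood 1.33-fold lower than in EHe at 7 days and 2.09-fold lower at 14 days, neither past the call. EHeD14 stayed 4.98-fold below Hepa1-6.

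Id4, known chiefly from neural and germline stem cells, had its highest signal in ES. It read 0.589 there, 0.169 in EHe, 0.0859 and 0.0591 at 7 and 14 days, and 0.00597 in Hepa1-6, where it was not well above background. Id4 was 3.49-fold lower in EHe than in ES (log2 -1.80, SE 0.22) and at least 23.3-fold lower in Hepa1-6. The Hepa1-6 bound was weaker, though past 3-fold, under several alternatives, at log2 -2.84 with normexp, -3.31 with the mean of both probes and -3.76 with quantile normalization or median centring, against -4.54. The difference between EHe and ES was not past 3-fold after normexp background correction (log2 -1.39). At 14 days it was 2.86-fold below EHe (log2 -1.52, SE 0.27), just short of the call, and past it with quantile normalization or median centring. The second probe ran 0.106, 0.0397, 0.0215, 0.0128 and 0.00535, the last pair not well above background.

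Among the ligands, Bmp4, the mesoderm-inducing BMP, was read by 10 spots per array (9 in EHeD14). Its mean relative signal was 1.61 in ES (spots 1.51 to 1.75), 0.966 in EHe (0.873 to 1.01) and 1.22 in Hepa1-6 (1.07 to 1.43). It was 0.508 in EHeD7 (0.474 to 0.538) and 0.257 in EHeD14 (0.242 to 0.271). These ranges are of repeated spots on 1 array per condition and do not cover the spread between cultures. The log2 difference of Hepa1-6 against ES was -0.41 and became 0.38 with median centring, so the order of the parents depends on the scaling. Bmp4 was 1.90-fold below EHe at 7 days and fell 3.75-fold by 14 days (log2 -1.91, SE 0.03 from the spots). EHeD14 was 4.73-fold below Hepa1-6. The hybrid itself was 1.67-fold below ES, under the call. Of 4 early mesoderm markers, T and Eomes ran the other way from Bmp4, with T at 0.0138 in EHe (not well above background), 3.07 in EHeD7 and 3.27 in EHeD14, and Eomes at 0.0960, 1.54 and 1.51. Mesp1 did not, at 0.0456 in EHe (not well above background), 0.0306 and 0.0391, and Mixl1 was not well above background on any array. The sum of the 4, carried by T and Eomes in the differentiated hybrids, was 0.163 in EHe, 4.66 in EHeD7 and 4.84 in EHeD14, and its part in the Bmp4 result was not tested.

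Bmp7, a ligand of many epithelia and of the kidney, had its highest signal in the hepatoma. Its probe read 13.4 in Hepa1-6 and 0.617 in ES, with EHe at 2.66, EHeD7 at 1.70 and EHeD14 at 1.00. The 3 hybrid arrays again lay between the parents and were ordered EHe, EHeD7 and EHeD14. Bmp7 was 4.31-fold higher in EHe than in ES (log2 2.11, SE 0.20) and exceeded ES 21.7-fold in Hepa1-6. A second probe with 10 spots gave 0.799, 2.39, 1.61, 1.07 and 11.2, and there the excess of EHe over ES was 2.98-fold, just short of the call. Repeated spots of that probe ran from 0.692 to 0.938 in ES and from 2.32 to 2.53 in EHe, on 1 array each. EHeD14 was 2.65-fold below EHe and 13.4-fold below Hepa1-6.

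Bmp2, a ligand close to Bmp4, was read by 10 spots on the hybrid arrays, 8 in ES and 9 in Hepa1-6, and gave 0.00753, 0.00785, 0.00454, 0.0173 and 0.00584 from ES to Hepa1-6, all under the arrays' floors. In EHeD14 3 of its 10 spots were well above background, and on the other 4 arrays 0 were. No fold was computed, and a low transcript level below the floor was not detectable.

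Bmpr1a, the type I receptor that BMP2 and BMP4 use in the early embryo, passed 3-fold in none of the comparisons among ES and the hybrid arrays. It read 2.13 in ES, 2.57 in EHe, 3.65 and 3.60 at 7 and 14 days, and 1.12 in Hepa1-6. EHeD7 and EHeD14 did not differ beyond the spot error, nor did EHe and ES. The 3.22-fold excess of EHeD14 over Hepa1-6 (log2 1.69, SE 0.20) was its single call, and it was lost when arrays were centred on their medians. The second Bmpr1a probe did not show it, at 0.0616 in EHeD14 and 0.0632 in Hepa1-6, and stayed between 0.0616 and 0.0692 on all 5 arrays.

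Smad1, the transducer, was present on every array. The parents read 4.12 (ES) and 13.0 (Hepa1-6), and the hybrid 7.27, 8.36 and 6.85 before and at 7 and 14 days of differentiation. The hybrid arrays lay between the parents, and neither EHeD7 nor EHeD14 differed from EHe beyond the spot error. Hepa1-6 exceeded ES 3.15-fold (log2 1.65, SE 0.20), which normexp background correction brought under the call (log2 1.57). The second probe gave 0.189, 0.382, 0.398, 0.366 and 0.703, the same course.

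Smad6, the inhibitory Smad that blocks BMP receptors and Smad1, fell at both days of differentiation. Its single probe read 2.83 in ES, 1.51 in EHe and 1.49 in Hepa1-6, against 0.331 in EHeD7 and 0.448 in EHeD14. The differentiated hybrids were the lowest arrays, and EHe did not differ from Hepa1-6 beyond the spot error. Smad6 fell 4.58-fold at 7 days (log2 -2.19, SE 0.20) and 3.38-fold at 14 days (log2 -1.76, SE 0.21) from EHe. The 1.35-fold difference between the 2 days was under the call. EHe and Hepa1-6 were each below ES, by 1.87-fold and 1.89-fold. With median centring the log2 differences from ES were -0.79 for EHe and -0.14 for Hepa1-6. The standing of Hepa1-6 against ES and EHe therefore depends on the scaling. Smad6 is abundant in endothelial cells. The summed signal of 4 endothelial markers was 0.860 in ES, 0.428 in EHe, 0.084 and 0.065 at 7 and 14 days, and 0.028 in Hepa1-6. In ES and EHe this sum was mostly Pecam1, at 0.718 and 0.398. It was lowest in Hepa1-6, where Smad6 read 1.49, above both differentiated hybrids. Of these 4 markers Pecam1 read 0.398 in EHe, 0.0440 at 7 days and 0.0182 at 14 days, the last not well above background. Tek read 0.0134 in EHe, not well above background, and 0.0277 and 0.0292 at 7 and 14 days. Both later values lay under the EHe floor of 0.0349, so no change in Tek can be read. Cdh5 and Kdr were not well above background on any array, and the part of these markers in the Smad6 result was not tested. Smad7, the other inhibitory Smad, read 1.10, 1.18, 1.07, 0.853 and 1.19 and was not called in any comparison.

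**Figure D2:**
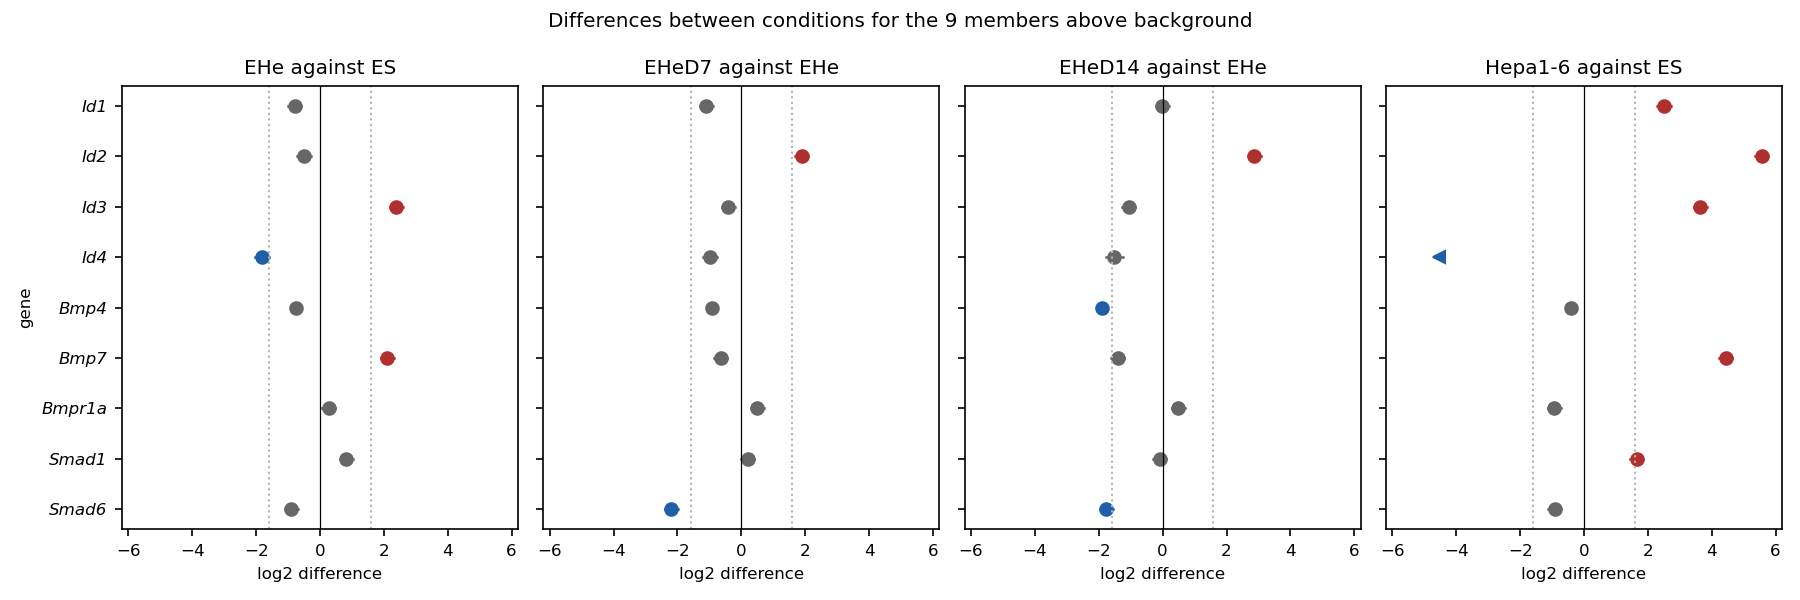
Log2 difference of the 9 genes above background in 4 comparisons, with bars of 1 standard error from the spots (not from replicate cultures), red for more than 3-fold higher, blue for more than 3-fold lower and grey for neither. Dotted lines mark 3-fold and the arrowhead on Id4 is a bound, at least 23.3-fold lower; Id2 at 2.87 is the red point at 14 days beside Bmp4 at -1.91 and Smad6 at -1.76.

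**Figure D3:**
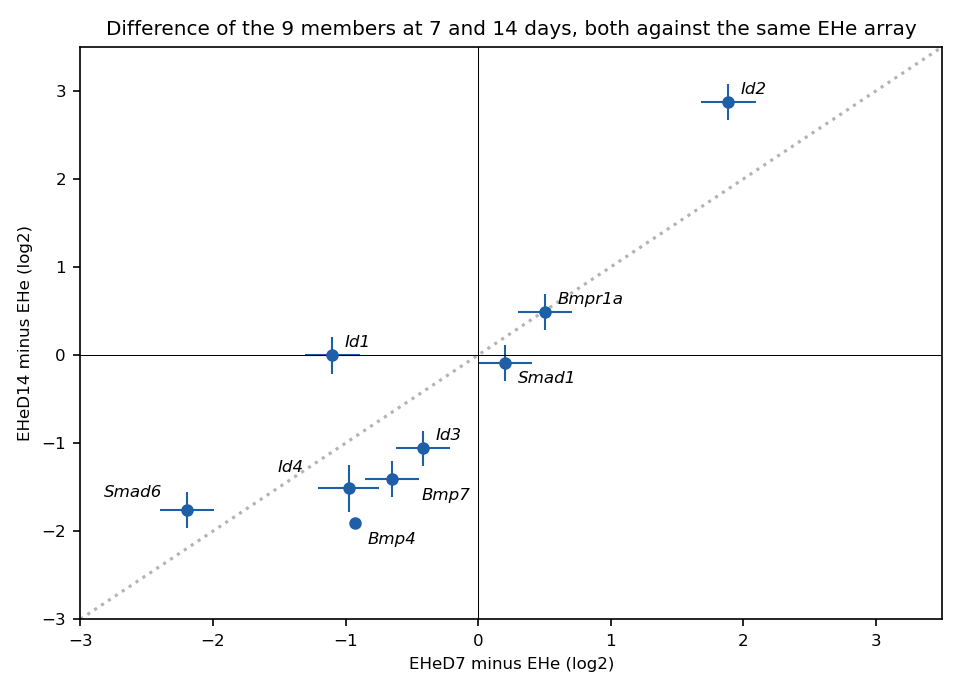
Log2 difference from EHe at 7 days (horizontal) and at 14 days (vertical) for the 9 genes, with bars of 1 standard error from the spots; both axes use the same EHe array and the dotted line marks equal values. Id1 lies off the line, at -1.10 and -0.00, Id2 and Bmp4 lie farther from 0 at 14 days than at 7, and Smad6 at -2.19 and -1.76.

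The position of the hybrid between its parents was counted where the parents differ. Of 3144 genes well above background in ES, EHe and Hepa1-6 and more than 3-fold apart between ES and Hepa1-6, EHe lay between the parents in 2054, or 65.3%. Of the 5 members among them, Id3, Bmp7 and Smad1 lay between the parents, and Id1 and Id2 lay below both. A share of 3 in 5 is near the share of all such genes.

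The rest of the pathway was read from a list of 78 further genes, of which 73 had a probe measured on all 5 arrays. At 7 days 5 of 56 tested genes were higher than in EHe and 5 lower, where 7.06% and 4.3% of all tested genes were. At 14 days 6 and 5 of 57 were (7.33% and 4.74% of all). Their median log2 difference was 0.24 at 7 days and 0.26 at 14 days, beside -0.02 for all genes at each day. In EHe against ES 3 of 54 were higher and 3 lower (2.58% and 3.52% of all; list median -0.04), and in Hepa1-6 against ES 12 of 56 were higher and 12 lower (13.9% and 22.2% of all; list median -0.09). When arrays were centred on their medians the last split became 17 higher and 9 lower, and with quantile normalization 14 and 9. The same 2 settings gave 3 higher and 1 lower, and 3 and 2, for EHe against ES.

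Of the other ligands, Gdf3, a TGF-beta family ligand of pluripotent cells, fell 3.68-fold at 7 days and 3.63-fold at 14 days, from 5.96 in EHe to 1.62 and 1.64, and was 152-fold lower in Hepa1-6 than in ES. The Hepa1-6 signal of Gdf3, 0.0258, was barely over that array's floor of 0.0253, so the size of this fold is uncertain. Gdf9, the oocyte ligand, fell 3.91-fold and 3.51-fold. Bmp8b, a ligand active in germ cell formation, rose at least 7.58-fold and at least 8.43-fold, and Hepa1-6 exceeded ES 81.3-fold. Bmp8a, its close paralogue, was 3.05-fold lower in Hepa1-6 than in ES, and cross-hybridisation between the pair was not tested.

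None of the 6 other receptors on the list was called on differentiation. Bmpr1b (0.0328 at 7 days, 0.0319 at 14 days) and Acvrl1 (0.0336 and 0.0301) were dim in EHe. Both lay under the EHe floor of 0.0349 and so could not be called. Of all tested genes 7.06% were called higher and 4.3% lower at 7 days, and 7.33% and 4.74% at 14 days. Bmpr2, the type II BMP receptor, read 0.165, 0.101, 0.146, 0.156 and 6.12, and Hepa1-6 exceeded ES 37.1-fold. In the same pair Acvr1, a type I receptor, was 4.71-fold higher, and Acvr2b, a type II receptor shared with activin, was 15.1-fold lower. Of the co-receptors, Eng, an endothelial one, was at least 23.0-fold lower in Hepa1-6 than in ES and Bambi, a decoy receptor, 5.30-fold lower. Smad5 and Smad4 were not called in any of the 6 comparisons, with Smad5 between 2.81 and 4.36 and Smad4 between 10.3 and 13.3 on the probes used. A further Smad5 probe put EHeD14 3.21-fold below Hepa1-6. Smad9 was well above background in ES alone, at 0.067.

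Antagonists outside the cell moved in both directions on differentiation. Fst, follistatin, which binds activins and some BMPs, rose at least 76.0-fold at 7 days and at least 92.4-fold at 14 days, from 0.00801 in EHe (not well above background) to 2.65 and 3.23. Crim1, a membrane protein that tethers BMPs, rose 3.70-fold and 3.20-fold. Vwc2, a secreted BMP antagonist, fell 12.9-fold and at least 15.4-fold, after standing 9.43-fold higher in EHe than in ES. Vwc2 read 0.329 in EHe and 0.293 in the Hepa1-6 parent. Fstl1 was 5.02-fold higher in EHe than in ES and was at least 60.1-fold lower in Hepa1-6. Noggin (Nog) read between 0.0678 and 0.119 in ES and the 3 hybrid arrays, was not well above background in Hepa1-6, and was not called on differentiation. Cer1, an antagonist of Nodal and BMP, was the single listed gene called between 14 and 7 days, at least 3.33-fold higher at 14 days. Bmp1, a protease that cleaves the antagonist chordin and is no BMP ligand, rose 8.85-fold and 7.03-fold, but its second probe gave log2 differences of 0.85 and 0.83, under the call. Bmp1 was also the third listed gene lower in EHe than in ES, at the edge of the call (log2 -1.59, and -0.92 on the second probe), after Hand1 and Tbx3.

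E proteins are the partners that Id proteins hold. Of the 3, Tcf4 fell 4.18-fold at 7 days and 4.87-fold at 14 days on the probe used, while its second probe gave log2 differences of 0.26 and 0.51, so the probes of this gene disagree. Tcf3 read 8.75, 8.71, 4.77, 5.45 and 4.49, and Tcf12 2.28, 2.64, 3.85, 3.81 and 4.72, with no call in any of the 6 comparisons, although a second Tcf12 probe put Hepa1-6 above ES by 1.62 on the log2 scale, past 3-fold.

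Other genes known to respond to BMP went in both directions on differentiation. Hand1, a factor of extraembryonic mesoderm, trophoblast and heart, rose at least 27.6-fold at 7 days and at least 35.2-fold at 14 days, to 0.966 and 1.23. Msx2 rose at least 3.42-fold at 14 days. Tbx3, which also supports pluripotency, fell 26.7-fold and 27.3-fold, from 9.15 in EHe to 0.342 and 0.335. In EHe against ES, Hand1 was at least 8.52-fold and Tbx3 3.21-fold lower, and Zeb2, a Smad-binding repressor, was at least 47.0-fold higher. The Zeb2 excess was seen on a second probe as well, at a log2 difference of 2.97. Zeb2 was also well above background in the Hepa1-6 parent, at 0.778 against 1.10 in EHe. Markers of other cell types were read on the same arrays. All 6 fibroblast markers and all 4 trophoblast markers were well above background in EHeD7 and EHeD14, against 4 and 2 in EHe. The EHe floor was higher, 0.0349 against 0.0140 and 0.0213, and Cdx2 on both differentiated arrays and Pdgfra in EHeD7 (0.0226) lay under it. ES had 4 and 4 such markers well above background, with sums of 1.33 and 5.87. Cdx2 (0.0910) and Pdgfra (0.216) were higher in ES than in either differentiated hybrid, and the other markers were lower. The trophoblast sum was 1.19 in EHe, 69.2 and 99.4 at 7 and 14 days and 384 in Hepa1-6, and on each of these arrays nearly all of it came from the keratins Krt8 and Krt18. Gata3 read 0.0264 in EHe (not well above background), 0.638 in EHeD7 and 0.719 in EHeD14, Cdx2 no more than 0.0346 in the differentiated hybrids, and neither was detected in Hepa1-6. The fibroblast sum was 1.03 in EHe, 4.82 in EHeD7 and 5.50 in EHeD14. Their part in the Id2, Fst and Hand1 values was not tested.

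**Figure D4:**
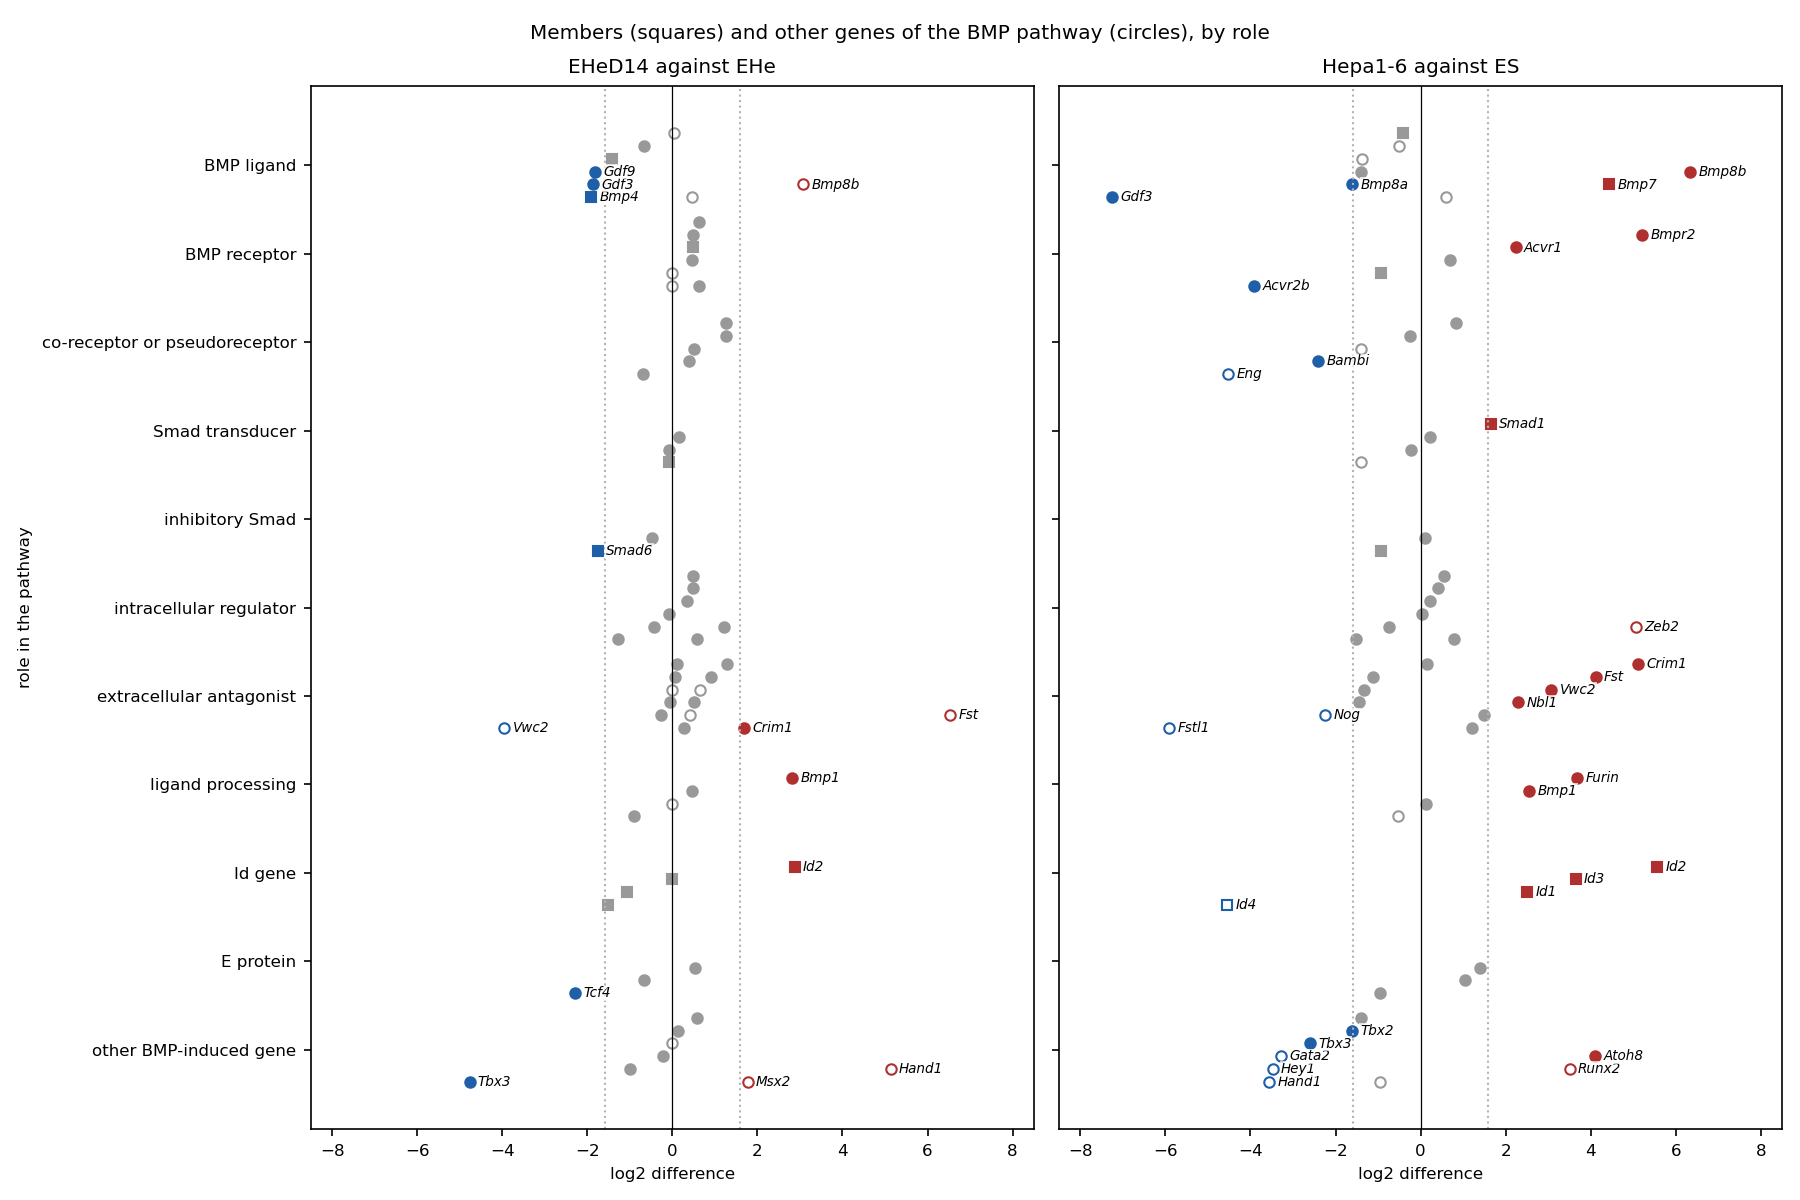
Log2 difference of the 9 members (squares) and the tested pathway genes (circles) by role, for EHeD14 against EHe and Hepa1-6 against ES, 1 array per condition. Red and blue mark more than 3-fold higher and lower, open symbols are bounds or dim on 1 side, and dotted lines mark 3-fold. All receptors and tested Smad transducers lie inside the lines at 14 days, but Bmpr1b and Acvrl1, under the EHe floor, could not be called. In Hepa1-6 Bmpr2 and Acvr1 lie to the right and Acvr2b to the left.

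Genes with the most similar profile were ranked by the root mean square (RMS) difference of centred log2 values over the 5 arrays, among 4508 genes. For Id1 they were Ripk1 (0.22), Xaf1 (0.26) and Hid1 (0.26). For Id2 they were S100a1 (0.22), Mboat1 (0.28) and Vamp5 (0.29). For Id3 they were Dhh (0.25), Tsc22d3 (0.25) and Mllt11 (0.27), and for Bmp4 they were 2310015A10Rik (0.22), Slc9b1 (0.24) and Tmem64 (0.24). With 5 arrays and 4508 genes, close profiles are found for most shapes, and no relation is drawn from them.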

How the data were processed

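Expression was measured on 5 Agilent mouse arrays. The authors deposited, per array, the Feature Extraction table (version 10.7.3.1 in the submitters' processing notes) with each spot's processed signal, an intensity corrected for background by the scanner software and not normalized between arrays; median spot and background intensities and the spot calls were also deposited. The series table matched these values exactly. Per the labels the dye was Cy3 and differentiation a monolayer culture, whereas the methods give Cy5 and describe embryoid bodies without naming the arrays. How these steps altered the values was not tested.

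Control spots and 73 to 174 outlier spots per array were left out. Processed signals were log2-transformed, reduced by the array's 75th percentile and averaged over a probe's spots. A probe was well above background if at least 50% of its spots were. Accessions were named through RefSeq, 26888 of 41174 probes having a name, and 1 probe was kept per gene, the one well above background on most arrays and then the brightest. A gene was tested where at least 1 of the 2 arrays was well above background and called past 3-fold. The dim side was set to the higher of its own signal and the array's floor. The calling step was tried on simulated data, with changes planted only in genes far above the EHe floor and noise of the size of the spot SD. The bound for dim planted genes and the spread between cultures were not tested there. Python 3.11.15, pandas 2.3.3, R 4.3.3 and limma 3.58.1 were used.

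The members, gene lists and markers were chosen with earlier results of these data known. Besides the members and markers, genes were named when more than 3-fold in the same direction at both days against EHe, between EHe and ES or between Hepa1-6 and ES, at most 8 per comparison by size, or when they made up a count of 5 or fewer; Nog, Tcf3, Tcf12, Smad4, Smad5, Smad7 and Smad9 were named for their role. The alternatives tried were normexp correction of the background (offset 50, on the median spot signal), quantile normalization, centring on the median, the series table, no detection bound, averaging the probes of a gene, a 2-fold threshold, and restriction to genes well above background throughout. Probes without a name, 5 of the listed genes (Gdf5, Chrdl2, Dand5, Tll1, Tll2) and Nanog and Serpina1a among the markers were not analysed here.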

Additional observations from a re-analysis of the deposited data

How the results depend on the processing

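No paired analysis was possible because a single array was hybridised per condition. The series table holds the same values and tests nothing. For Id3, Bmp4 and Smad6, read by 1 probe each, the mean of all probes also equals the value given. Those differences are among the 100 below that moved by less than the spot SD and add no test. Under the other alternatives 59 of 70 counts stayed within 1.5 times the value given and 11 did not; 100 of 216 member differences moved by less than the median spot SD (0.0857 on the log2 scale) and 116 by more, and 0 called values changed sign. At 2-fold the members called became 6 rather than 3 for EHeD14 against EHe and 1 rather than 0 for EHeD14 against EHeD7, and the pathway genes called became 11 rather than 6 for EHe against ES, 37 rather than 24 for Hepa1-6 against ES and 16 rather than 10 for EHeD7 against EHe. Among genes well above background on all 5 arrays the pathway counts were 2, 12, 6 and 6 for EHe against ES, Hepa1-6 against ES, EHeD7 against EHe and EHeD14 against EHe (36 genes tested in each), against 6, 24, 10 and 11. Without the detection bound, 10 pathway genes passed for EHe against ES and 17 for EHeD14 against EHe. The shares of all genes called at 2-fold, on all 5 arrays or without the bound are not given here. The counts under these settings therefore cannot be set against the array as a whole. Under normexp the Id4 fall in EHe against ES (log2 -1.39) and the Smad1 excess in Hepa1-6 over ES (1.57) were no longer past 3-fold. The Bmpr1a excess of EHeD14 over Hepa1-6 was lost under median centring and with the mean of its probes (0.82). Id4 in EHeD14 against EHe came past 3-fold under quantile normalization (-1.71) and median centring (-1.67). Centring on the median moved the median of all genes for Hepa1-6 against ES from -0.42 to 0.30, and the uncalled Bmp4 difference there from -0.41 to 0.38; the members called stayed 5 higher and 1 lower, with Id2 at 6.35 rather than 5.57 and Bmp7 at 5.22 rather than 4.44. Apart from the effect of fewer genes or another threshold, the cause was not tested. Signal over background limits Bmp2 on all arrays, Id4 and Gdf3 in Hepa1-6 and every value given as a bound.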

Other observations

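Other genes of the pathway also passed 3-fold between EHeD14 and Hepa1-6, as 18.6% (higher) and 12.9% (lower) of all 14596 tested genes did. Higher and lower were 2 and 1 of 7 ligands, 1 and 2 of 6 receptors and 3 and 0 of 5 co-receptors. For antagonists they were 3 and 3 of 14, and for other BMP-induced genes 3 and 3 of 9. Furin (ligand processing), Tob1 (intracellular regulator) and Tcf4 (E protein) were the single calls in their roles, each lower in EHeD14. Receptors differed in both directions, with Bmpr2 39.1-fold and Acvr1 3.13-fold lower and Acvr2b 19.7-fold higher in EHeD14 than in Hepa1-6. Among antagonists, Fstl1 was at least 291-fold, Fst 5.27-fold and Nog at least 3.80-fold higher, while Vwc2 was at least 13.8-fold, Crim1 8.21-fold and Bmper 5.89-fold lower. Of the co-receptors, Eng was at least 39.9-fold, Hjv at least 7.72-fold and Bambi 6.09-fold higher. Among ligands, Gdf3 was 63.6-fold and Bmp8a 4.79-fold higher and Bmp8b 10.97-fold lower, the Gdf3 fold resting on a Hepa1-6 signal barely over the floor. Hand1, Hey1 and Msx2 were higher by at least 48.7-fold, 13.8-fold and 4.72-fold, and Atoh8, Tbx3 and Runx2 were lower by 14.8-fold, 14.4-fold and at least 12.4-fold. The other Runx2 probes above background gave log2 differences of -3.58 and -0.48. Slide, medium and cell state cannot be told apart in these values.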
